A study of Mus musculus with 2 samples.

Results

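The FMRP family and CPEB translation regulators are 9 mouse genes: Fmr1 with its paralogs Fxr1 and Fxr2, the FMRP-interacting genes Cyfip1 and Cyfip2, and Cpeb1, Cpeb2, Cpeb3 and Cpeb4. They were chosen by name and matched to the gene tables by identifier, giving 9 of 43346 genes and 65 of 103639 transcripts. RNA came from the whole forebrains of 2 newborn mice of strain B6NCrl (postnatal day 0), pup 1 as replicate 1 and pup 3 as replicate 2, with a single forebrain in each library. The labels name no treatment, transgene or other tissue, leave the sex of the pups unrecorded and give both pups the same donor identifier, so the pups form 1 group and no conditions were compared. Expected counts, which divide reads shared between features and need not be whole, totalled 40066386 in pup 1 and 40431595 in pup 3. Levels are in TPM, which divides by transcript length and scales to the library, and a mean is given as ± SD with n = 2. Since 2 animals allow no exact two-sided sign-flip p under 0.5, no test is given and every difference is read against how far the pups lay apart. That spread holds differences between the animals and between the preparations of their RNA alike.

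FMRP, the product of Fmr1, binds mRNAs on polyribosomes and mostly holds back their translation; its loss causes fragile X syndrome. FXR1P and FXR2P are its autosomal paralogs and share its RNA-binding domains. CYFIP1 and CYFIP2 bind FMRP; CYFIP1 also binds the cap-binding protein eIF4E, and both are subunits of the WAVE complex, which drives branching of actin filaments. CPEB proteins bind a uridine-rich element near the 3′ end of mRNAs and recruit enzymes that lengthen or shorten the poly(A) tail, a switch used in oocytes and at synapses.

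Short coding exons vary between transcripts of these genes, and the 3 that have the same length are shown first because their shares differed between paralogs. Each is 24 nt long, is read from the GENCODE M21 transcripts (assembly GRCm38, the build named mm10) and is written 5′ to 3′ on the gene's strand, with the bases that all 3 share in capitals. The Cpeb4 exon lies at chr11:31918801-31918824 on the plus strand, the Cpeb2 exon at chr5:43268869-43268892 on the plus strand and the Cpeb3 exon at chr19:37105791-37105814 on the minus strand.
Cpeb4 exon: CaAGGActTATGGGCGaAGgaGAG
Cpeb2 exon: CaAGGAgtTATGGGCGaAGacGAG
Cpeb3 exon: CcAGGAgcTATGGGCGgAGacGAG
All 3 shared 18 of 24 bases. Cpeb2 matched Cpeb4 at 21 bases and matched Cpeb3 at 21, and Cpeb4 matched Cpeb3 at 18. A further pair of coding exons whose shares are given later is shown for its place in the reading frame, since both lengths are multiples of 3. The Fmr1 exon of 63 nt lies at chrX:68705861-68705923 and the second alternative exon of Cpeb4, of 51 nt, at chr11:31908825-31908875, both on the plus strand.
Fmr1 exon: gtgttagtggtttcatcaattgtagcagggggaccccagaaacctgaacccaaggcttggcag
Cpeb4 exon: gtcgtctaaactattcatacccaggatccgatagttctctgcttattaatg

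All 9 genes were detected, meaning that each pup reached at least 1 TPM, as were 60.7% of the 21474 protein-coding genes in the tables. Their levels spanned more than 10-fold, from Cyfip2 down to Cpeb1, and the FMRP family and CYFIP genes all stood above the CPEB genes in mean level. Percentiles below place a gene's mean TPM among the 13030 protein-coding genes detected in both pups.

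Fmr1 (chromosome X, 68678541 to 68717963, plus strand) had 32.5 TPM in pup 1 and 21.9 in pup 3, from expected counts of 3061 and 2365. Its mean of 27.2 ± 7.50 TPM stood at percentile 61.9. Fxr1, which besides its RNA-binding role is needed in muscle (chromosome 3, 34019943 to 34070322, plus strand), had 22.2 and 19.7 TPM from counts of 1130 and 1138. Fxr2 (chromosome 11, 69632990 to 69653297, plus strand) had 21.9 and 19.3 TPM from counts of 1153 and 1252. The paralogs were thus near each other in both pups, at means of 20.9 ± 1.81 TPM for Fxr1 and 20.6 ± 1.86 TPM for Fxr2, while Fmr1 was the gene of the family with the wider gap between pups. Pup 1 held the higher TPM for each of the 3 genes, although for Fxr1 and Fxr2 the direction turned with TMM scaling, as given below. Their TPM summed to 76.7 in pup 1 and 60.9 in pup 3, and Fmr1 made up 42.4% and 36.0% of the sum, a mean of 39.2 ± 4.53%. Fxr1 made up 30.7 ± 2.35% and Fxr2 30.1 ± 2.18%, so no gene of the family held most of it. Counted on transcripts of 1000 nt or more, a view chosen after the data were seen, Fxr2 fell behind at 15.0 ± 0.17 TPM and held 24.2% of the family, against 33.6% for Fxr1.

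Cyfip2 was the highest of the 9 genes (chromosome 11, 46193850 to 46312859, minus strand). It had 66.2 TPM in pup 1 and 45.7 in pup 3, from counts of 10041 and 7944, a mean of 55.9 ± 14.5 TPM at percentile 77.9. Cyfip1 (chromosome 7, 55841745 to 55932602, plus strand) had 31.4 and 20.6 TPM from counts of 3103 and 2362, a mean of 26.0 ± 7.64 TPM at percentile 60.7. Both genes were higher in pup 1. Cyfip2 exceeded Cyfip1 by 2.11-fold in pup 1 and 2.21-fold in pup 3 and made up 67.8% and 68.9% of their summed TPM, a mean of 68.4 ± 0.777%. The split between the CYFIP genes was thus nearly the same in both pups although both levels differed.

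Cpeb4 led the CPEB genes (chromosome 11, 31872211 to 31935634, plus strand) with 12.2 TPM in pup 1 and 8.28 in pup 3, from counts of 1611 and 1233. Cpeb2 (chromosome 5, 43233170 to 43289724, plus strand) followed with 8.21 and 5.24 TPM from counts of 1129 and 820. Cpeb3, which is known to act at hippocampal synapses (chromosome 19, 37021291 to 37208601, minus strand), had 6.77 and 3.19 TPM from counts of 460 and 228. Cpeb1, the founding member known from polyadenylation in oocytes (chromosome 7, 81347026 to 81455465, minus strand), had 4.42 and 1.80 TPM from counts of 155 and 80. Pup 1 was the higher for all 4, with the wider ratios in Cpeb3 and Cpeb1. Mean levels were 10.2 ± 2.77 TPM for Cpeb4, 6.73 ± 2.10 for Cpeb2, 4.98 ± 2.53 for Cpeb3 and 3.11 ± 1.85 for Cpeb1, at percentiles 37.0, 27.6, 21.6 and 12.6. Of the summed CPEB TPM of 25.1 ± 9.26, Cpeb4 held 41.7 ± 4.33%, Cpeb2 27.1 ± 1.65%, Cpeb3 19.3 ± 2.96% and Cpeb1 11.9 ± 3.01%.

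Transcript models shorter than 1000 nt carried much of the TPM of the lowest genes on few reads. In Cpeb3 they held 49.0% of TPM in pup 1 and 57.7% in pup 3, but only 9.93% and 11.8% of its expected counts. In Cpeb1 they held 59.4% and 55.8% of TPM on 27.0 and 14.2 counts. In Fxr2 the shares were 30.8% and 22.6%, against a median of 5.89% and 5.18% over 9516 detected protein-coding genes with 2 or more transcripts. Without these models the level of Cpeb3 was 3.45 TPM in pup 1 and 1.35 in pup 3, and that of Cpeb1 was 1.79 and 0.80, so that 8 of the 9 genes then reached 1 TPM in both pups. Cpeb4 then held 50.7 ± 3.53% of the CPEB sum, Cpeb2 32.0%, Cpeb3 11.2% and Cpeb1 6.11%. The order of the 4 genes was unchanged, but the levels of Cpeb1 and Cpeb3 rest on how reads were divided among short models.

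**Figure D1:**
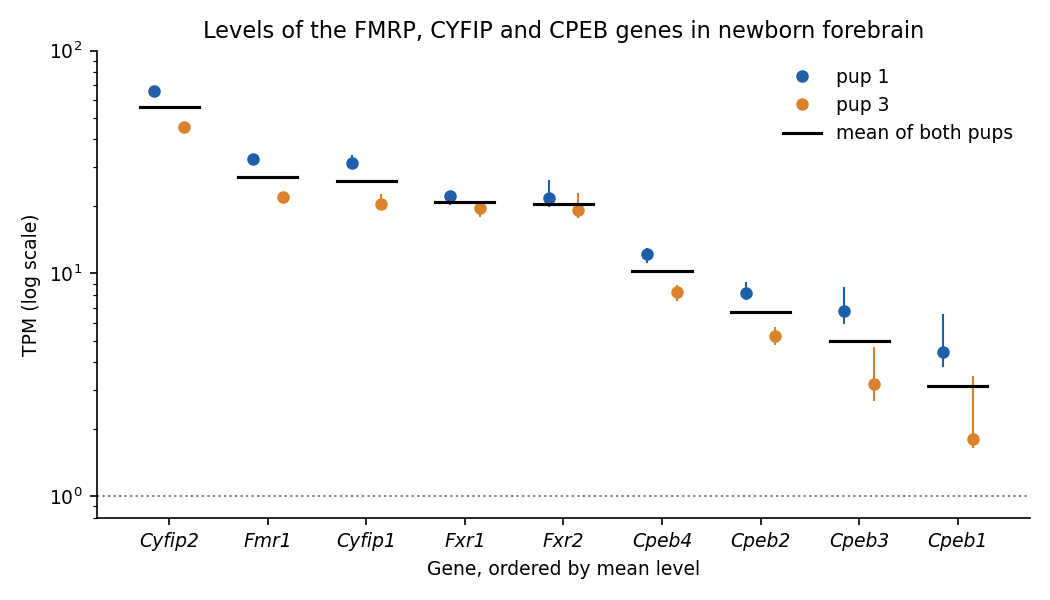
TPM (log axis) of each gene in pup 1 and pup 3, with points for the pups, vertical lines for the deposited interval of each estimate (of unstated level) and black bars for the mean of both pups; the dotted line marks 1 TPM. Cyfip2 stands highest at a mean of 55.9 TPM and Cpeb1 lowest at 3.11, and in TPM pup 1 lies above pup 3 for every gene; TMM-scaled counts turned this for Fxr1 and Fxr2.

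Ratios of TPM + 0.1 within each pup were used to ask which genes of a family differed by more than the spread between pups, meaning that the log2 ratio had 1 sign and a mean larger than 3 times its SD. By that measure 6 of 10 within-family pairs differed, and 5 to 9 did under other pseudocounts, estimates, transcript sets or undivided counts. The share of pairs of other genes that pass the same rule was not computed, so this number describes these pairs only and is not called particular to them. Cyfip2 over Cyfip1 gave a log2 ratio of 1.11 ± 0.05, and Cpeb4 over Cpeb2 gave 0.61 ± 0.06. Cpeb4 exceeded Cpeb3 by 1.79-fold in pup 1 and 2.55-fold in pup 3, and exceeded Cpeb1 by 2.72-fold and 4.41-fold. The call for Cpeb4 over Cpeb3 was lost without a pseudocount, at a log2 ratio of 1.11 ± 0.37. Cpeb3 exceeded Cpeb1 by 1.52-fold and 1.73-fold. The last of the 6 pairs, Fxr1 over Fxr2, passed only because both pups gave almost the same small ratio, 1.015 and 1.021. Its sign turned with the deposited posterior mean TPM, to a log2 ratio of -0.08, and with counts not divided by length, also to -0.08, and the deposited intervals of both genes overlapped in each pup.
Fmr1 was higher than Fxr1 by 1.46-fold in pup 1 and 1.11-fold in pup 3, and higher than Fxr2 by 1.48-fold and 1.14-fold, neither larger than the spread. On protein-coding transcripts alone Fmr1 made up 36.02% of the family in pup 3 and Fxr1 36.41%, so their order turned in that pup. Cpeb2 over Cpeb3 (1.21-fold and 1.62-fold) and Cpeb2 over Cpeb1 (1.84-fold and 2.81-fold) kept their direction in both pups but also stayed within 3 SD. Both pairs did pass on transcripts of 1000 nt or more, at log2 ratios of 1.51 ± 0.48 and 2.31 ± 0.33, and on counts not divided by length. Cpeb2 over Cpeb1 also passed with posterior mean TPM (0.87 ± 0.25), a pseudocount of 1 (0.96 ± 0.28) and protein-coding transcripts only, so its call rests on the setting. Both Fmr1 pairs passed only with counts not divided by length, at 1.24 ± 0.27 over Fxr1 and 1.16 ± 0.35 over Fxr2. In the order of all 9 genes, the neighbours Fmr1 and Cyfip1, Cyfip1 and Fxr1, and Cpeb2 and Cpeb3 did not differ beyond the spread. Across families Cyfip2 stood above Fmr1 by 2.03-fold and 2.08-fold, and Fxr2 above Cpeb4 by 1.79-fold and 2.31-fold, both larger than the spread. The gap between Fxr2 and Cpeb4 depends on short models. On transcripts of 1000 nt or more Fxr2 had 15.1 and 14.9 TPM and Cpeb4 12.2 and 8.28, and the rule was not run on this pair there. In counts not divided by length the order turned in pup 1, with 1153 for Fxr2 and 1611 for Cpeb4.

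In TPM all 9 genes were lower in pup 3 than in pup 1 (7 of 9 once counts were scaled by TMM), and so were 80.4% of the 14985 genes whose mean reached 1 TPM. The median log2 ratio of pup 3 over pup 1 was -0.57 for the 9 genes and -0.27 for all genes. A ratio of 1.5-fold or more was reached by 4 of the 9 genes, against 21.4% of all genes: Cpeb1 at 2.46-fold, Cpeb3 at 2.12-fold, Cpeb2 at 1.57-fold and Cyfip1 at 1.53-fold, all higher in pup 1. Fmr1 (1.48-fold), Cpeb4 (1.47-fold) and Cyfip2 (1.45-fold) lay just inside that limit, while Fxr2 (1.14-fold) and Fxr1 (1.13-fold) were the closest between pups. Most genes in the tables were lower in pup 3 on this scale too.
Counts scaled by TMM, which sets the bulk of genes level between libraries, moved the median of all genes to 0.02. On that scale 7 of the 9 genes were lower in pup 3, against 47.4% of all genes, and Fxr1 and Fxr2 turned to log2 ratios of 0.13 and 0.24. Cpeb3 at -0.88 and Cpeb1 at -0.80 then were the 2 genes past 1.5-fold, against 10.7% of all genes, and Fmr1 stood at -0.25. Cpeb1 and Cpeb3 are also the 2 genes with the fewest reads. Beside these ratios, hemoglobin TPM, summed over 4 red blood cell markers, was 2257 in pup 1 and 3199 in pup 3, and the summed TPM of 8 forebrain neuron markers was 4122 and 3714. Their part in the ratios between pups was not tested, and in whole tissue fewer cells of a type cannot be told apart from less RNA per cell.

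**Figure D2:**
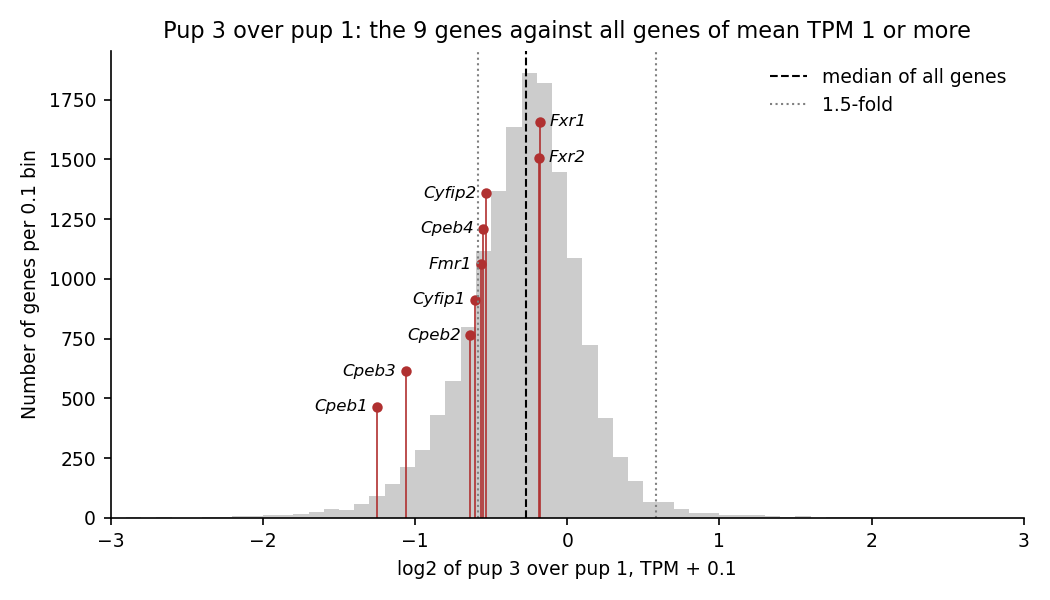
Histogram of the log2 ratio of pup 3 over pup 1 (TPM + 0.1, horizontal axis) over the 14985 genes whose mean reached 1 TPM, as genes per bin (vertical axis), with red markers at the 9 named genes; the height of a marker only separates the names. Every red marker lies below 0 on this TPM scale (Fxr1 and Fxr2 turned positive with TMM scaling), as does the median of all genes at -0.27 (dashed), and Cpeb1, Cpeb3, Cpeb2 and Cyfip1 lie past the 1.5-fold line (dotted).

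The transcript tables split each gene's TPM among its annotated transcripts, as a percent of the gene. The same transcript led in both pups for 8 of the 9 genes, against 91.2% of 9516 detected protein-coding genes with 2 or more transcripts. Fmr1 was the exception, and with the deposited posterior mean shares the number was 7 of 9. Cyfip2 was carried almost wholly by Cyfip2-202, with 89.4% in pup 1 and 92.8% in pup 3. Fxr2-201 held 69.2% and 77.4% of its gene, and Cpeb2-201 held 67.5% and 74.5% with Cpeb2-205 next at 28.3% and 23.4%. Fxr1 had only 2 models, Fxr1-202 with 69.3% and 64.6% and Fxr1-201 with 30.7% and 35.4%. In these 4 genes the transcripts named here kept their order in both pups.
Fmr1, Cyfip1 and Cpeb4 were each split between 2 main transcripts. Fmr1-206 held 34.1% in pup 1 and 29.8% in pup 3, and Fmr1-201 held 30.6% and 36.4%, so the leader differed between pups although neither share moved by 10 percentage points. Fmr1-202 (12.6% and 16.1%) and Fmr1-205 (11.2% and 6.42%) followed, and 9 other models, 3 of them at 0, shared the rest. Cyfip1-201 held 50.8% and 58.1% and Cyfip1-202 held 36.0% and 32.6%. Cpeb4-203 and Cpeb4-202 were level in pup 1 at 44.8% and 44.2% and apart in pup 3 at 58.5% and 33.6%; their counts were 705 and 833 in pup 1, and 707 and 486 in pup 3. The count of Cpeb4-203 thus hardly moved, and the gap between pups lay in Cpeb4-202.
Cpeb3 was led by Cpeb3-209, a model of 659 nt, at 34.2% and 42.7% on only 32.3 and 21.4 counts. The longer Cpeb3-201 (5899 nt) held 17.7% and 19.0% of TPM on 173 and 98.8 counts, more reads than the leader, and Cpeb3-203 held 13.9% and 13.5%. Cpeb3-207 (11.2% and 4.16%) and Cpeb3-206 (0% and 10.9%) rested on at most 10.7 counts in a pup. Cpeb1 was divided among 5 transcripts, with Cpeb1-203 at 36.9% and 23.9%, Cpeb1-202 at 24.1% and 19.2%, Cpeb1-208 at 13.8% and 12.9%, Cpeb1-201 at 3.57% and 20.3%, and Cpeb1-204 at 3.71% and 15.3%. All of these but Cpeb1-203 and Cpeb1-201 rest on fewer than 10 counts in each pup, so their shares carry little precision.
Most TPM, over 50% in both pups, lay in transcripts of biotype protein-coding for 8 of the 9 genes, against 88.2% of the same 9516 genes. The exception was Cpeb1, with 40.6% in pup 1 and 44.2% in pup 3 of its TPM. With expected counts in place of TPM all 9 genes passed, Cpeb1 included: Cpeb1-203 and Cpeb1-201 held 116 and 11.8 of its 155 counts in pup 1, and 34.8 and 30.99 of 80 in pup 3. Fxr2 had 69.2% and 77.4%, Fmr1 88.5% and 88.7%, Cyfip1 91.1% and 93.8%, and Cpeb2 95.9% and 97.9%. Cyfip2, Fxr1, Cpeb3 and Cpeb4 had 100%, but all their annotated transcripts are of this biotype. Their passing was thus fixed by the annotation and is not a result of these libraries. The median over the 9516 genes was 94.3% and 95.6%.

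**Figure D3:**
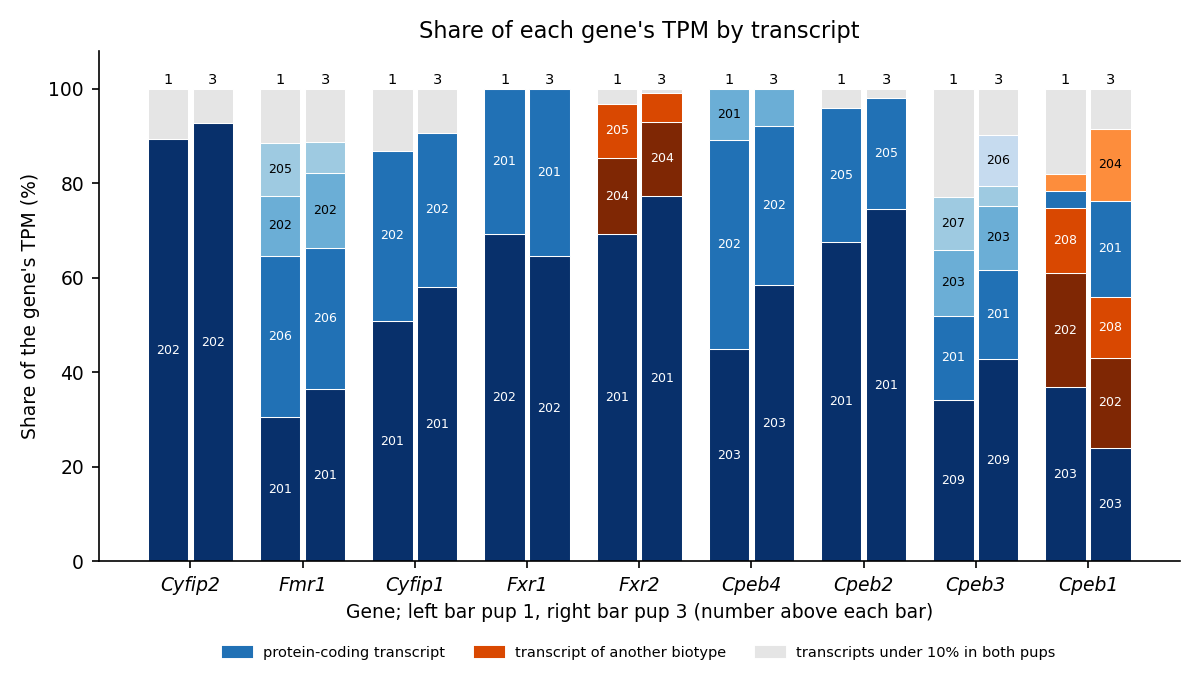
Share of each gene's TPM (%, vertical axis) held by its transcripts, with the left bar of each pair for pup 1 and the right bar for pup 3; blue marks protein-coding transcripts, orange other biotypes and grey all transcripts under 10% in both pups, and numbers inside the bars are the ends of the transcript names. Cyfip2 is nearly 1 transcript, Fmr1 changes its leading transcript between pups, and Cpeb1 is the gene with less than 50% of TPM, though not of counts, in protein-coding transcripts.

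Inclusion of the short exons was taken as the TPM of transcripts that hold the exon over the TPM of all transcripts of the gene that span it. It rests on transcript models rather than on reads across the exon's junctions. Of the 9 genes, Cpeb2, Cpeb3 and Cpeb4 had an internal exon of 51 nt or less that some transcripts leave out; 31.7% of the 13030 detected protein-coding genes had an internal exon this short in any transcript. An exon of exactly 24 nt was present in 143 of those genes, or 1.10%. The 24-nt exon of Cpeb3 was the most included, at 72.8% in pup 1 and 68.1% in pup 3, a mean of 70.5 ± 3.26%. Cpeb4 followed with 55.2% and 41.4% (48.3 ± 9.74%), and Cpeb2 was lowest with 29.5% and 23.98% (26.7 ± 3.89%). The order Cpeb3, Cpeb4, Cpeb2 held in both pups and the values of the 3 genes did not overlap. The Cpeb3 share rests on little RNA, since transcripts spanning its exon held 3.45 TPM in pup 1 and 1.35 in pup 3. The leading Cpeb3-209 does not span it. Of the spanning transcripts without the exon only Cpeb3-203 was above 0, on 110 and 57.0 counts, so the Cpeb3 share restates that of this model. A microexon of CPEB4 is known to be included mainly in neurons, so in whole forebrain its share also depends on which cells were present. With the deposited posterior mean TPM the share in Cpeb3 was 61.6%, still above that in Cpeb4.
The 51-nt exon of Cpeb4 went the other way between pups, with 55.8% in pup 1 and 66.4% in pup 3. In the annotation Cpeb4-201 held both short exons, Cpeb4-202 only the one of 24 nt and Cpeb4-203 only the one of 51 nt, so the shift in both shares is the shift between Cpeb4-202 and Cpeb4-203. Cpeb4-201, with both exons, held 11.0% and 7.85%.
Longer alternative exons were looked at after their values were seen. The Fmr1 exon of 63 nt, which lies in the part coding for an RNA-binding KH domain, was included at 47.8% in pup 1 and 56.7% in pup 3, a mean of 52.3 ± 6.32%. Fmr1-201 and Fmr1-202 carried it, while Fmr1-206 and Fmr1-205 did not. In Cyfip1, no transcript held both an exon of 154 nt (chr7:55898238-55898391) and one of 148 nt (chr7:55897825-55897972) with exactly these ends. Cyfip1-205, a retained-intron model, spanned both, and its exons overlapped each of them with other ends. Transcripts with such an overlap held 1.44% of the spanning TPM in pup 1 and 0.776% in pup 3 for the exon of 154 nt. For that of 148 nt they held 2.39% and 1.76%. The exon of 154 nt was included at 59.9% and 64.6%, and the one of 148 nt, of Cyfip1-202, at 38.7% and 34.7%. An exon of 90 nt in Cpeb2 (chr5:43238327-43238416) was included at 71.7% and 76.5%. Cpeb2-201 held this exon and not the one of 24 nt, and Cpeb2-205 the reverse. Both Cpeb2 shares therefore largely restate the split between these transcripts and are not separate measures of each exon. All 5 Cpeb2 transcripts, both Fxr1 transcripts, Cyfip1-201 and Cpeb1-209 have lengths in M21 that differ from the deposited ones, 9 of 65 in all, so exon shares of Cpeb2 and Cyfip1 assume that these exons were already present in the older models; Fxr1 exons are not given for this reason.

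**Figure D4:**
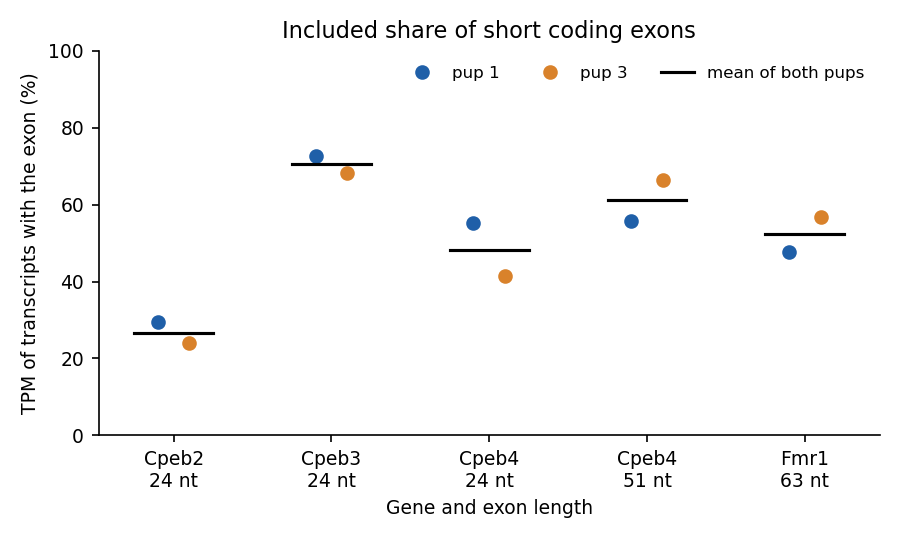
Included share (%, vertical axis) of 5 alternative coding exons (horizontal axis, gene and exon length) in pup 1 and pup 3, with points for the pups and black bars for their mean. The 24-nt exon stands at 26.7% in Cpeb2, 48.3% in Cpeb4 and 70.5% in Cpeb3, with no overlap between the values of these genes in the 2 pups. The Cpeb3 share rests on spanning transcripts with 3.45 TPM in pup 1 and 1.35 in pup 3.

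CPEB1 is known to bind TTTTAT (in DNA letters) in the 3′ UTR near the polyadenylation signal AATAAA. The last 200 nt of the highest protein-coding transcript of each gene, as M21 gives it, were searched for both on the sense strand only, where matches may overlap. Cpeb3 was left out because its highest model has no annotated 3′ UTR of 200 nt, leaving 8 genes. TTTTAT was present in 2 of 8, Fmr1 and Cpeb2, against 23.98% of 10965 detected protein-coding genes. AATAAA was present in 4 of 8 (Fxr2, Cpeb4, Cpeb2 and Cpeb1), against 69.5%. The matches, each with 12 bases on either side and TTTTAT in capitals, started 35 nt before the end of Fmr1-201 and 159 nt before the end of Cpeb2-201.
Fmr1 match: ctagatgtaaatTTTTATtaaaaagttgca
Cpeb2 match: taatttagtttaTTTTATtgttatcttcca
Cpeb2-201 has 6327 nt in M21 and 5459 nt as deposited, so the end searched need not be that of the quantified model. Lengths of Cyfip1-201 and Fxr1-202 differ as well. A match of letters is a description of these transcript ends as annotated and says nothing about binding.

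Several genes share ground with other annotated genes, and no source used here gives the strandedness of the libraries, so reads in shared exons cannot be assigned by strand. Overlaps are those of M21, and the quantified models may have differed. The largest exonic overlap was that of Cyfip1 with Nipa2 on the opposite strand (30.3 TPM in pup 1 and 25.6 in pup 3), over 1316 nt. It lies at the 3′ end of Cyfip1, where Cyfip1-201 has 6440 nt in M21 and 4538 nt as deposited, so the quantified model may have lacked it. Transcript lengths of Fxr1 and Cpeb2 also differ. Fxr1 overlapped the exons of Dnajc19, on the opposite strand, by 178 nt, and Dnajc19 was far higher than Fxr1 at 131 and 163 TPM. Cpeb2 shared 137 exonic nt with the antisense gene Gm7854 (2.35 and 1.48 TPM), and Cpeb3 shared 116 nt with the antisense A330032B11Rik (0.04 and 0.06 TPM). Fmr1 shared 72 nt with Gm27838, listed at 0. No exon was shared where Fndc9 (13.8 and 8.22 TPM) lies inside Cyfip2, or where March5 (104 and 101 TPM) overlaps the span of Cpeb3. The ribozyme gene Gm22714 within Cpeb3 was listed at 0 in both pups. Gm22435 in Fmr1, Mir467f in Fxr2 and Gm23918 in Cpeb3 were also listed at 0. Like Gm27838, these genes and Gm22714 (78 nt) are shorter than 200 nt. Only RNA longer than 200 nt was extracted, so their values of 0 cannot show whether they are expressed. The pseudogenes Gm12568 in Cyfip2, Gm17907 in Cyfip1 and Rpl7a-ps9 in Cpeb1 were each under 1 TPM. Another 4 genes of a type still to be established within these spans were not analysed here.

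Lists of genes that work with these regulators all had medians above the level of Cpeb4, the highest CPEB gene, at 10.2 TPM. Counts of genes lower in pup 3 are given by TPM and then by TMM-scaled counts, since the scale moves them. They are to be read beside the 14985 genes whose mean reached 1 TPM. Of these, 80.4% were lower in pup 3 by TPM and 47.4% by TMM, and 21.4% and 10.7% passed 1.5-fold. Of 18 genes for protein partners of FMRP, all 18 were detected at a median mean level of 22.6 TPM, led by Ybx1 (954 ± 25.5 TPM), an mRNA-packaging protein, and Caprin1 (204 ± 18.1 TPM), a protein of RNA granules; Nufip2 was lowest at 1.98 ± 0.849. Among them 17 of 18 were lower in pup 3 by TPM and 8 by TMM, and 5 passed 1.5-fold by TPM and 3 by TMM. The WAVE complex and its Rac activators, to which the CYFIP proteins belong, had 11 of 11 detected at a median of 67.1 TPM. Rac3 (584 ± 7.35) and Rac1 (320 ± 19.8) led it, both GTPases, and Nckap1l, the subunit of blood cells, was lowest at 1.20 ± 0.198 TPM. Cyfip2, the higher CYFIP gene at 55.9 TPM, lay below that median.
All 12 genes of the cap-binding and 4E-binding list were detected, at a median of 54.6 TPM. The list also holds initiation factors of the eIF4G and eIF4A families and is not limited to genes that bind the cap or eIF4E. Eif4g2 at 756 ± 44.0 and the helicase Eif4a1 at 587 ± 77.0 were at the top and Eif4ebp3 at 1.88 ± 0.601 at the bottom. The 22 genes of the polyadenylation and deadenylation machinery that CPEB proteins recruit were all detected, at a median of 26.8 TPM. Pabpc1, the poly(A)-binding protein, led with 155 ± 1.48 TPM, followed by the deadenylase Cnot7 with 120 ± 15.9, and the oocyte gene Zar1 was lowest with 1.96 ± 0.106. By TPM 10 of 11 WAVE genes, 9 of 12 genes of the cap-binding list and 18 of 22 machinery genes were lower in pup 3, and by TMM 4, 6 and 6 were. In each of these lists 1 gene passed 1.5-fold by TPM, and by TMM 0, 1 and 0 did.
Of 21 mRNAs described as FMRP targets, all 21 were detected, at a median of 19.5 TPM; Map1b (529 ± 213 TPM), a microtubule protein of growing axons, and App (308 ± 97.0 TPM) led and Pik3cb was lowest at 1.80 ± 0.113. By TPM all 21 were lower in pup 3 and 9 passed 1.5-fold, beside 80.4% and 21.4% of all genes. By TMM 17 were lower and 3 passed, beside 47.4% and 10.7%. Of 14 mRNAs described as CPEB targets, 13 were detected, at a median of 39.4 TPM, with Actb (8992 ± 267) and Sumo2 (1041 ± 8.95) at the top and Mos, a maternal kinase of oocytes, lowest at 0.195 ± 0.021. In that list 9 of 14 were lower in pup 3 by TPM and 8 by TMM, and 4 and 1 passed 1.5-fold. Camk2a and Dlg4 belong to both target lists. RNA levels say nothing about the translation of these mRNAs.

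**Figure D5:**
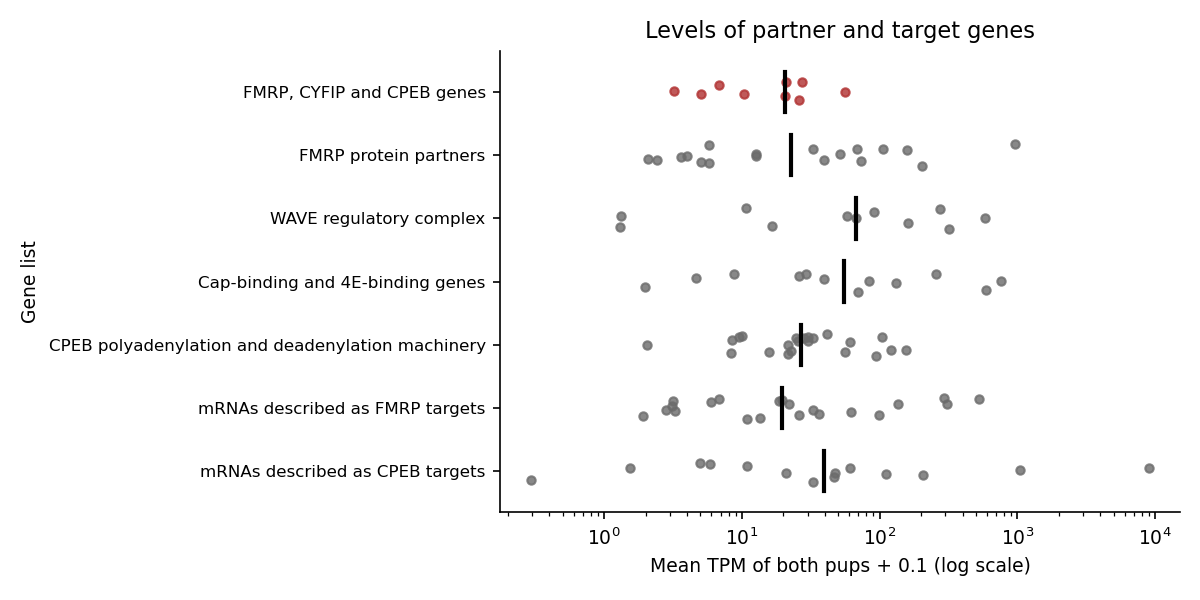
Mean TPM of both pups + 0.1 (log axis) for each gene of the 9 regulators (red) and of 6 lists of partner and target genes (grey), with a black bar at the median of each list. The medians of the partner and target lists lie between 19.5 TPM for FMRP targets and 67.1 TPM for the WAVE complex, and the 4 CPEB genes are the lowest red points.

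The tissue label was checked on marker genes. All 8 forebrain neuron markers were detected, with Tubb3, a tubulin of neurons, at 1836 TPM in pup 1 and 1700 in pup 3 and Stmn2 at 1424 and 1216. None of 5 hindbrain markers reached 1 TPM, with Hoxa2, Hoxb2, Hoxb3 and Hoxb4 at 0 and En1 at 0.16 and 0.04. Radial glia (6 of 6 markers detected, Fabp7 at 2258 and 2433 TPM), the oligodendrocyte lineage (4 of 5) and astrocytes (4 of 4) were also represented. So were microglia (5 of 5, C1qb at 58.4 and 65.0 TPM), endothelial cells (4 of 4, Cldn5 at 109 and 114), choroid plexus (2 of 3, Ttr at 1335 and 1043) and red blood cells (4 of 4). The 9 levels are therefore those of mixed tissue and cannot be placed in 1 cell type. As a check for 1 library deposited in duplicate, counts of the pups were compared over 17485 genes; the chi-square per degree of freedom was 56.5, and the libraries were counted as 2 samples.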

How the data were processed

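Total RNA longer than 200 nt was extracted with mirVana, 10 ng per library, per the labels. Reads were quantified on mm10 with GENCODE M4, per the deposited notes; no source used here names the aligner, the quantifier, their versions or the strandedness. The authors deposited, per the file headers, expected counts, TPM, posterior mean TPM with interval bounds, and each transcript's share of its gene as a percent. Symbols, positions, biotypes and exons came from GENCODE M21 (GRCm38, the same build); 42462 of 43346 genes matched by identifier, and the rest held 0.171% and 0.154% of counts. Computed here were means, SDs, log2 ratios of TPM + 0.1, family shares and exon shares. Expected counts were rounded and scaled with edgeR 4.0.16 (TMM) and DESeq2 1.42.0 (size factors) over 18103 genes with a count of 10 or more in either pup, in R 4.3.3; Python 3.11.15, numpy 2.4.6, pandas 2.3.3 and matplotlib 3.10.9 did the rest. The fold rule was tested on simulated counts with counting (Poisson) noise only, so that test says nothing about spread between animals. The 9 genes, the lists of partners, targets and cell markers, and the rules were chosen with earlier results of these data known. Named were the 9 genes, the 2 highest and the lowest of each partner and target list, overlapping genes, and transcripts holding 10% or more in either pup; of the cell markers only some are named, chosen after their values were seen, and 1 is not reported here. Alternatives were other thresholds, pseudocounts, estimates, scalings and transcript sets, and each pup alone; transcripts of 1000 nt or more were added after the data were seen.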

Additional observations from a re-analysis of the deposited data

How the results depend on the processing

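With a threshold of 10 TPM in place of 1, 5 of the 9 genes were detected in both pups. At 5 SD in place of 3, 3 of 10 within-family pairs differed by more than the spread between pups. The number of genes past 1.5-fold between pups, 4 by TPM, was 2 with TMM-scaled counts, 2 with DESeq2 size factors and 2 with TPM rescaled to nuclear protein-coding genes; it was 7 at a smaller fold limit and 2 at 2-fold. The log2 ratio of Fxr1 over Fxr2 reversed to -0.08 both with posterior mean TPM (-0.0787) and with counts not divided by length (-0.0831). The mean of the other within-family ratios kept its sign under every alternative run, although Fmr1 over Fxr1 on protein-coding transcripts (0.18 ± 0.27) had opposite signs in the pups. Of 60 values over all 10 pairs, 24 moved by more than 1 SD with the sign kept, and the 2 of Fxr1 over Fxr2 given above reversed. Of 36 alternative levels, 5 moved, those of Fxr1, Fxr2 and Cpeb3; Cpeb1 went from 3.11 to 1.295 TPM on protein-coding transcripts or those of 1000 nt or more, within its SD of 1.85, which left 8 of 9 genes detected, and of 8 exon shares under posterior mean TPM or transcripts of 1000 nt or more, 1 moved, that of Cpeb3 to 61.6%. Genes with few reads (Cpeb1 with 155 and 80 expected counts) and shares between similar transcripts are the least precise values. No paired analysis was possible because there is only 1 group of samples.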
